A study of Quercus x morisii and Quercus suber and Quercus ilex with 16 samples.

Results

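Cork-like outer bark of a hybrid oak was set against the rhytidome of holm oak. The cork-like bark came from 1 adult natural hybrid (Quercus x morisii), which the study describes as a backcross to cork oak with a cork-type bark. Its 4 libraries came from 4 faces of that single trunk: north, south, east and west. The rhytidome came from 4 adult holm oaks (Quercus ilex), here trees 33, 67, 68 and 94, each sampled on the south side. The trees were wild and untreated and grew in 1 mixed forest, their ages are not given in the sources used here, and bark was taken while the phellogen was active. In every case the inner face of the outer bark was scraped, and by the study's anatomy the rhytidome material also held living secondary phloem. The sequenced cDNA libraries were made from total RNA, and the deposited table holds regularized log2 read counts (rlog) for 47292 loci in 16 libraries. The 8 libraries of these 2 barks were compared at the 25963 loci whose rlog averaged 1 or more over them. The other 8 libraries, from cork of 4 cork oaks (Quercus suber) and rhytidome-like bark of 4 other hybrids, entered the fit only through its estimate of the spread.

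The outer bark of a woody stem is built by the phellogen, a cambium that gives rise outward to phellem. Phellem cells fill their walls with suberin, a polyester of long-chain fatty acids, fatty alcohols, glycerol and ferulate, and then die. In cork oak 1 phellogen persists and builds a thick, even layer of phellem, the cork of commerce. In holm oak, as in most oaks, new phellogens arise ever deeper and cut off thin periderms with dead phloem between them, and this layered bark is called rhytidome.

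The 4 cork-like libraries were sides of 1 tree, and their SD is a spread within a trunk, while the SD of rhytidome is a spread between trees. The median SD over the loci was 0.22 in cork-like bark and 0.43 in rhytidome, and the SD was larger in rhytidome at 79.8% of the loci. Pairs of cork-like libraries had Pearson's r of 0.987 to 0.991 across loci and pairs of rhytidome libraries 0.930 to 0.956, against 0.870 to 0.901 for a cork-like with a rhytidome library (loci are not independent replicates). The test over 4 cork-like libraries therefore carries no information on how cork-like trees differ among themselves, and the count of calls in each gene group is also given with the 4 sides averaged to 1 sample. Beside single loci, "averaged" marks the adjusted p of that fit, which was run over all barks. Bark, species, tree and hybrid ancestry change together and cannot be told apart. Reads of both barks were aligned to the cork oak genome, and the part that sequence divergence of holm oak had in the counts was not tested. A locus was called a differentially expressed gene (DEG) where its adjusted p fell under 0.01 and its log2 fold change exceeded 1 in size, and a positive log2 fold change means a higher level in cork-like bark.

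limma called 5608 of the 25963 loci DEGs (21.6%), 2504 of them higher (9.64%) and 3104 lower (12%) in the cork-like tree. Which direction held more calls turned with the scaling, with 2946 higher and 2797 lower after quantile normalization and 2909 higher and 2749 lower after median centring. Of the higher DEGs 1281 exceeded a log2 fold change of 2 and 289 exceeded 4, and among the lower DEGs 1830 lay below -2 and 427 below -4. The 4 cork-like and 4 rhytidome libraries did not overlap at 5488 of the DEGs and at 11354 of all loci tested (43.7%). With the 4 sides averaged to 1 sample, the same fit called 1010 DEGs (3.89%), 514 higher (1.98%) and 496 lower (1.91%), of which 1009 were among the 5608. With that averaged sample against the rhytidome libraries alone, limma called 14, while 6145 loci had an unadjusted p under 0.05. The direction of the calls went with the level of the loci. Between a mean rlog of 1 and 3 there were 230 higher and 541 lower DEGs among 4028 loci. Between 11 and 14 there were 356 higher and 143 lower among 3294, and at 14 or more 37 higher and 10 lower among 140. The median log2 fold change of all loci, called or not, also differed with level. It was -0.28, 0.12 and 0.38 in these 3 ranges, and the cause was not tested. At the 18209 loci averaging 5 or more the split was even, with 1880 higher (10.3%) and 1867 lower (10.3%).

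**Figure D1:**
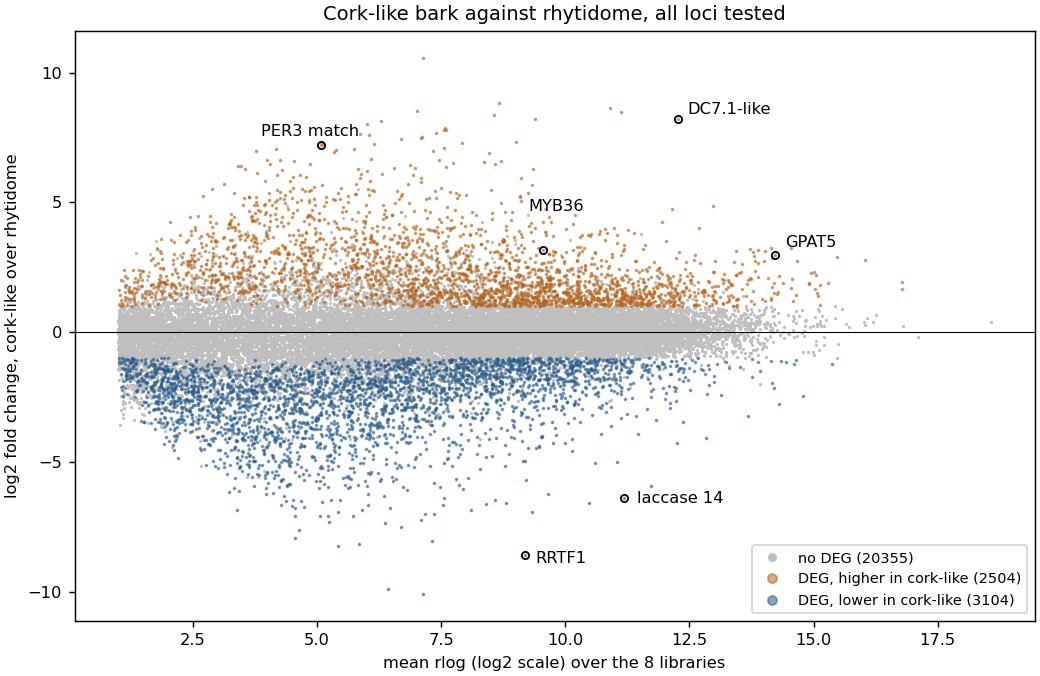
Log2 fold change of cork-like bark over rhytidome (vertical axis) against the mean rlog over the 8 libraries (horizontal axis, log2 scale) for the 25963 loci tested, with the 2504 higher and 3104 lower DEGs in colour and 6 named loci ringed. Higher DEGs outnumber lower ones among loci of high level, and lower DEGs outnumber higher ones among loci of low level.

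Names were at hand for 544 of the tested loci, through the Arabidopsis matches that the study lists, and a name below is that of the match. These names came in 3 ways that bear on any count. The study singled out 88 loci for their function or for quantitative PCR with results of these samples known, and 39 of them were higher and 20 lower (67.0% called, against 21.6% of all loci). Another 82 tested loci are lipid pathway genes that the study lists from its clusters of rhytidome-biased expression, so their direction was fixed by that choice, and 53 of them were lower. The remaining 374 tested loci follow the row order of the table and were not chosen by their values. Of these, 35 were higher and 52 lower (23.3%), a share near that of all loci. Below, "not chosen by value" refers only to how the name of a locus came in. Single loci of these 374 were picked here for their large differences. The 4 values of a bark are given below as rlog for north, south, east and west of the cork-like tree and for trees 33, 67, 68 and 94 of rhytidome.

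Suberin genes were higher in cork-like bark. Of 14 loci that code for enzymes of suberin synthesis and polymerization, 12 were higher DEGs (9.64% of all loci) and 2 were not called. The median log2 fold change of the 14 was 1.95, against -0.06 over all loci, and the libraries did not overlap at 13 of them (43.7% of all loci). The study chose these loci on the same samples, so the direction is no independent evidence. GPAT5 LOC112028279, an acyltransferase that links fatty acids to glycerol for suberin, had 15.81, 15.79, 15.34 and 15.94 in cork-like bark, against 13.24, 12.67, 12.49 and 12.54 in rhytidome. All 4 sides lay above every holm oak, and the difference was 2.98 ± 0.37 (SE) on the log2 scale, or 7.91-fold (adjusted p = 1.5e-05, averaged 0.011). GELP38, GELP51 and GELP96 are GDSL esterases that join suberin monomers into polymer in Arabidopsis roots. The locus GELP38 LOC111998717 had 14.08, 14.02, 14.06 and 14.24 in cork-like bark, against 11.69, 10.37, 10.98 and 11.43 in rhytidome, a log2 fold change of 2.98 ± 0.45 (adjusted p = 1.0e-04, averaged 0.033). GELP96 LOC111989476 had 16.20, 15.97, 15.98 and 16.03 in cork-like bark, against 13.87, 12.50, 13.01 and 13.83 in rhytidome, with a log2 fold change of 2.74 ± 0.34 (adjusted p = 1.8e-05, averaged 0.013). At each of these loci the lowest cork-like side was more than 2 log2 units above the highest holm oak. The second GELP38 locus, LOC112036148, was higher by 2.71 (adjusted p = 1.2e-05, averaged 0.012), with 11.20, 11, 10.98 and 11.12 in cork-like bark, against 8.91, 7.65, 8.06 and 8.83 in rhytidome.

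The remaining called suberin loci covered the other steps of the pathway. ASFT/FHT, the transferase that adds ferulate to suberin, was higher at both of its loci, by 1.90 (LOC112007140) and 1.51 (LOC112001733). CYP86B1 LOC112009780, which puts a hydroxyl group on the end of very long fatty acids, was higher by 1.72 and the elongase KCS2 LOC112030764 by 1.36. The alcohol-forming reductases CER4/FAR3 LOC112006012 and FAR4 LOC112006016 were higher by 2.10 and 1.30. GELP51 was higher by 2.31 at LOC112038078 and 2.000 at LOC112038093. The other GELP51 locus, LOC112009101, had 8.94, 8.88, 9.07 and 8.85 in cork-like bark, against 9.42, 8.54, 8.84 and 9.30 in rhytidome, and the barks overlapped (log2 fold change -0.089 ± 0.36, adjusted p = 0.87). The second FAR4 locus, LOC112008996, had 6.52, 6.88, 6.56 and 6.63 in cork-like bark, against 5.82, 6.18, 5.79 and 5.64 in rhytidome. These did not overlap, but the locus was not called (log2 fold change 0.79 ± 0.49, adjusted p = 0.22). With the 4 sides averaged to 1 sample, limma called 0 of the 14 at an adjusted p under 0.01, while 12 had an unadjusted p under 0.05, and the adjusted p of the 12 DEGs ran from 0.011 to 0.18. Leaving out any single library left 10 to 12 of them called. FAR4 LOC112006016 lost the call without any 1 of the 4 sides or of trees 33, 68 and 94 (adjusted p up to 0.015), and KCS2 LOC112030764 without tree 67 or 68 or the west side (up to 0.011). In bulk bark a larger share of suberizing cells and more RNA per such cell cannot be told apart.

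**Figure D2:**
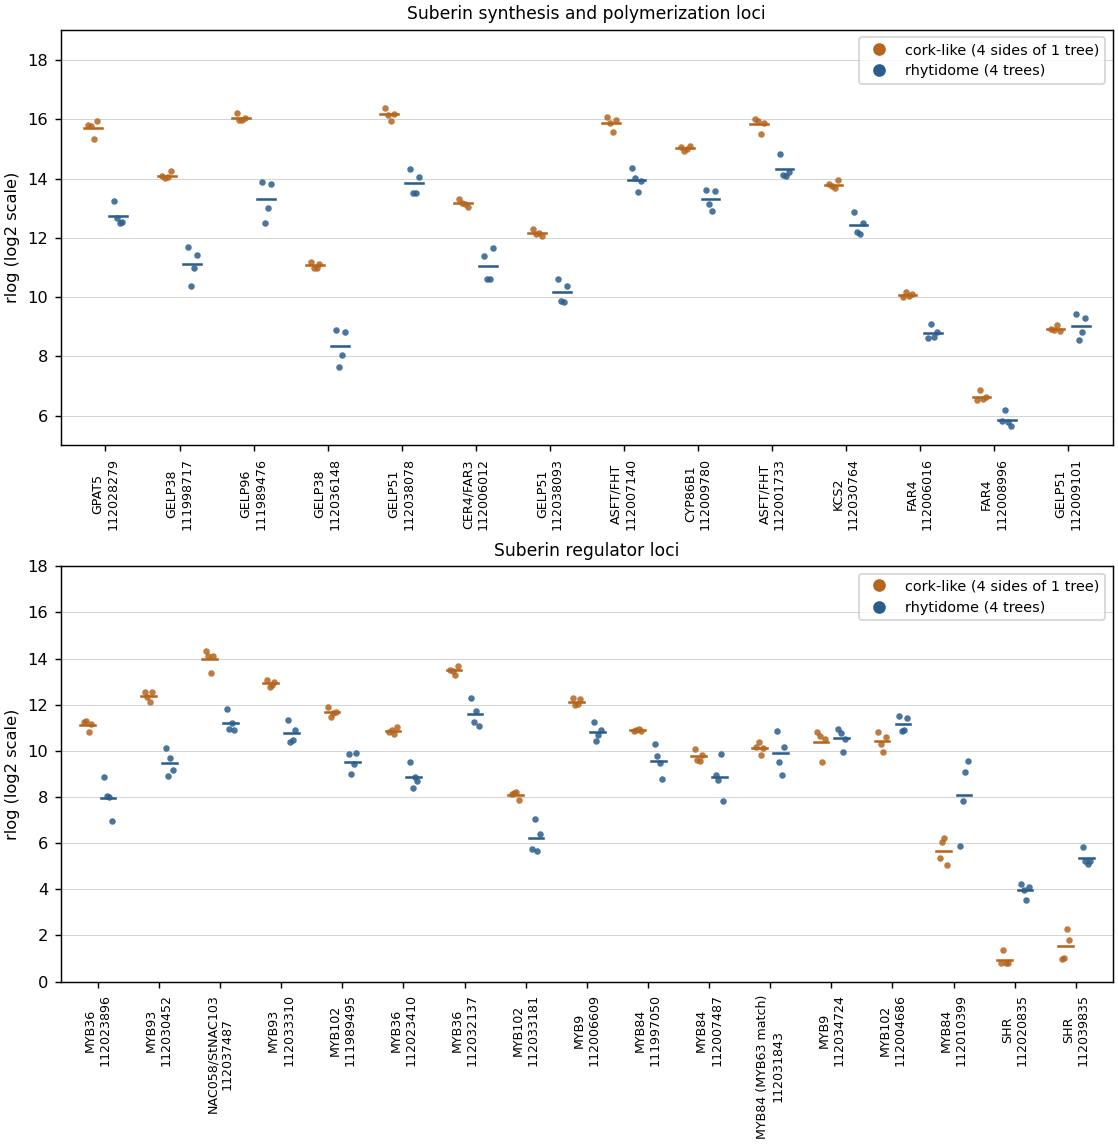
Values of rlog (log2 scale) in each library for the 14 suberin synthesis loci (upper panel) and the 17 suberin regulator loci (lower panel), with cork-like sides left of rhytidome trees and a bar at each mean. At 13 of the 14 synthesis loci the 4 sides lie apart from the 4 trees, and the exception is GELP51 LOC112009101.

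Loci matched to regulators of suberin and of the Casparian strip were mostly higher too. Of 17 loci, all among those the study singled out, 10 were higher (9.64% of all loci), 2 lower (12%) and 5 not called, with a median log2 fold change of 1.32. With the sides averaged, 5 higher and 2 lower calls were left. MYB36, which switches on Casparian strip genes in Arabidopsis roots, was higher at all 3 of its loci. MYB36 LOC112023896 had 11.23, 11.29, 10.80 and 11.19 in cork-like bark, against 8.85, 8.06, 8.002 and 6.97 in rhytidome, a difference of 3.16 ± 0.33 (adjusted p = 4.1e-06, or 0.0062 with the sides averaged). The other MYB36 loci were higher by 2.003 (LOC112023410) and 1.89 (LOC112032137). MYB93, a root MYB whose apple homolog activates suberin genes, was higher at both loci, and LOC112030452 had 12.55, 12.33, 12.12 and 12.54 in cork-like bark, against 10.14, 8.92, 9.69 and 9.19 in rhytidome (log2 fold change 2.90 ± 0.31, adjusted p = 4.6e-06, averaged 0.0062). MYB93 LOC112033310 was higher by 2.15. NAC058/StNAC103 LOC112037487, whose potato homolog represses suberin genes, moved the same way as the activators, with 14.33, 14.09, 13.37 and 14.11 in cork-like bark, against 11.80, 10.93, 11.21 and 10.92 in rhytidome and a log2 fold change of 2.76 ± 0.33 (adjusted p = 1.2e-05, averaged 0.0076).

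MYB9, MYB102 and MYB84 were split between their loci. MYB9, an activator of suberin genes in Arabidopsis, was higher at LOC112006609 by 1.32 (adjusted p = 5.5e-04, averaged 0.068). The other MYB9 locus, LOC112034724, had 10.80, 10.65, 9.53 and 10.50 in cork-like bark, against 10.93, 10.79, 9.96 and 10.50 in rhytidome, and its barks overlapped (log2 fold change -0.18 ± 0.38). MYB102, a stress-responsive MYB, was higher by 2.14 at LOC111989495 and 1.89 at LOC112033181, while LOC112004686 had a log2 fold change of -0.77 and was not called. Among 4 MYB84 loci, LOC111997050 was higher by 1.31 and 3 were not called. The lowest of these, MYB84 LOC112010399, had 5.36, 6.05, 6.21 and 5.03 in cork-like bark, against 5.87, 7.81, 9.08 and 9.57 in rhytidome (log2 fold change -2.42 ± 0.74, adjusted p = 0.016). Its holm oaks spanned more than 3 log2 units, and tree 33 overlapped the cork-like sides. SHORT-ROOT (SHR), which specifies endodermis in roots, was the exception in direction. Its loci were low in cork-like bark, with 0.96, 1.02, 2.29 and 1.82 in cork-like bark, against 5.83, 5.22, 5.11 and 5.23 in rhytidome at LOC112039835 and 0.82, 1.35, 0.79 and 0.80 in cork-like bark, against 4.22, 3.99, 3.53 and 4.11 in rhytidome at LOC112020835. They were lower by 3.82 and 3.02 on the log2 scale (adjusted p = 2.1e-06 and 2.2e-06), and both kept the call with the sides averaged.

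Transporters of lipids and suberin precursors differed between loci, and most of the lower ones came from the list fixed in direction. Of 17 loci, 3 were higher (9.64% of all loci) and 11 lower (12%), and with the sides averaged 1 call was left, at ABCG11 LOC112038306. However, 10 of the 11 lower loci were in the lipid list taken from rhytidome-biased clusters. ABCG2 LOC111999232, a half-transporter needed for suberin in Arabidopsis roots and seed coats, had 9.16, 9.22, 9.09 and 9.49 in cork-like bark, against 7.32, 6.81, 6.86 and 6.26 in rhytidome, a log2 fold change of 2.43 ± 0.36 (adjusted p = 7.7e-05, averaged 0.03). In the opposite direction went ABCG11, which exports cuticular lipids and suberin monomers in Arabidopsis. ABCG11 LOC112029276, singled out by the study, had 11.43, 10.69, 10.23 and 11.27 in cork-like bark, against 13.43, 12.76, 14.36 and 13.73 in rhytidome (log2 fold change -2.66 ± 0.43, adjusted p = 1.7e-04, averaged 0.028). The largest difference was at ABCG11 LOC112038306, with 4.73, 4.22, 4.51 and 4.51 in cork-like bark, against 10.15, 9.67, 11.58 and 10.50 in rhytidome and a log2 fold change of -5.98 ± 0.45 (adjusted p = 1.7e-07, averaged 9.6e-04). Every holm oak was more than 4 log2 units above every side. ABCG11 LOC111989383 was lower by 2.60 (averaged 0.13), and its adjusted p was 0.013 without tree 67 and 0.012 without cork-like north or south.

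Lipid transfer proteins carry lipids toward the wall. LTP1.4/LTP2 LOC112036584 had 13.70, 13.23, 13.24 and 13.32 in cork-like bark, against 12.84, 12.39, 12.94 and 13.78 in rhytidome, which overlapped (log2 fold change 0.38 ± 0.39). Within the loci not chosen by value, the lipid-transfer loci LOC112009540 and LOC111994752, both matched to AT1G05450, were higher by 2.05 and 1.80. Without tree 67 these differences were 1.77 (adjusted p = 0.012) and 1.55 (adjusted p = 0.010), no longer called. Lipid transfer protein 3 LOC111984915 was lower, with 1.45, 1.01, 0.85 and 1.42 in cork-like bark, against 8.25, 7.19, 5.30 and 9.24 in rhytidome (log2 fold change -6.31 ± 1.02, adjusted p = 1.8e-04, averaged 0.043). The ABC-2 type transporter LOC112012025, matched to AT2G13610, had 9.43, 10.16, 10.39 and 10.31 in cork-like bark, against 13.15, 13.98, 13.60 and 9.66 in rhytidome. Tree 94 lay among the cork-like sides, and its log2 fold change of -2.53 (adjusted p = 0.0068, averaged 0.19) had an adjusted p above 0.01 without any 1 of the 4 sides or of trees 33, 67 and 68, up to 0.026. With tree 67 left out, the calls among the 17 transport loci were 1 higher and 7 lower.

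Regulators of the phenylpropanoid pathway went both ways. That pathway supplies lignin, ferulate and tannins. Over all loci 9.64% were higher and 12% lower DEGs. Of 9 tested loci 3 were higher and 4 lower, and with the sides averaged 1 higher and 2 lower. MYB4, a repressor of phenylpropanoid genes in Arabidopsis, was higher at 3 of 5 loci and lower at 1. MYB4 LOC112037069 had 12.85, 12.94, 12.88 and 12.80 in cork-like bark, against 11.46, 10.65, 11.09 and 10.85 in rhytidome, a log2 fold change of 1.85 ± 0.17 (adjusted p = 1.0e-06, averaged 0.003). MYB4 LOC112009383 and LOC112035436 were higher by 2.16 and 2.05. MYB4 LOC111990470 went the other way, with 9.96, 10.44, 10.01 and 9.75 in cork-like bark, against 11.05, 11.90, 11.89 and 12.53 in rhytidome (log2 fold change -1.80 ± 0.33, adjusted p = 5.2e-04, averaged 0.061), and LOC112023509 was not called (-1.29). MYB5, which acts in seed coat tannin and mucilage pathways, was lower at both loci. MYB5 LOC112003598 had 8.51, 9.76, 9.82 and 8.94 in cork-like bark, against 12.19, 12.15, 12.44 and 11.91 in rhytidome, a log2 fold change of -2.91 ± 0.30 (adjusted p = 2.9e-06, averaged 0.0011). MYB5 LOC112035506 was lower by 1.68, and its adjusted p was 0.011 without the north side. Of the 3 TT2-type MYBs, a class that activates tannin genes, 2 passed the filter on level, and LOC112010882 was lower with 4.04, 5.14, 5.38 and 5.85 in cork-like bark, against 9.45, 9.37, 8.62 and 9.06 in rhytidome (adjusted p = 2.0e-05, averaged 0.0077). TT2-type MYB loci were in the list drawn from rhytidome-biased clusters.

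Among peroxidases and laccases, enzymes that oxidize lignin precursors in the wall, differences ran from -6.38 to 7.22 on the log2 scale. The named oxidases numbered 13, of which 9 were tested, with 3 higher (9.64% of all loci), 2 lower (12%) and 4 not called, and 1 in each direction with the sides averaged. Laccase 14 LOC112039871 came from the loci not chosen by value, but was picked here for its large difference. It had 7.79, 8.04, 8.05 and 8.12 in cork-like bark, against 14.14, 13.27, 14.95 and 15.16 in rhytidome. The lowest holm oak was over 5 log2 units above the highest side, and the log2 fold change was -6.38 ± 0.37 (adjusted p = 1.4e-08, averaged 2.1e-04). Peroxidase 3 (PER3), a class III peroxidase, was higher at 3 of its 6 tested loci. The match LOC112009242, also not chosen by value, had 8.52, 8.96, 8.85 and 8.38 in cork-like bark, against 2.15, 1.84, 0.73 and 1.13 in rhytidome (log2 fold change 7.22 ± 0.70, adjusted p = 1.8e-06, averaged 0.0037). In cork its mean rlog was 2.43 and in rhytidome-like bark 2.31, beside 8.68 in cork-like bark. PER3 LOC112041098 had 9.56, 9.58, 10.23 and 9.78 in cork-like bark, against 2.53, 6.06, 7.63 and 6.77 in rhytidome and LOC112024648 had 8.74, 8.74, 9.30 and 8.87 in cork-like bark, against 3.31, 4.79, 7.30 and 6.84 in rhytidome. Holm oaks differed by more than 3 log2 units at both, with tree 33 lowest, and the differences were 4.04 ± 0.82 and 3.35 ± 0.70 (adjusted p = 0.0012 and 0.0014, averaged 0.1 and 0.11). PER39 LOC112024643 was lower by 3.28 with 2.89, 1.17, 2.94 and 3.11 in cork-like bark, against 4.07, 3.86, 7.21 and 8.09 in rhytidome. Its adjusted p exceeded 0.01 without tree 68 or 94 or without the north, south or east side, up to 0.023. PER72 LOC112006365, with 9.39, 9.42, 9.05 and 9.41 in cork-like bark, against 9.40, 8.97, 9.85 and 9.25 in rhytidome, overlapped (log2 fold change -0.053 ± 0.42), and PER3 LOC111996084 was not called either (0.87, adjusted p = 0.18).

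Loci of the cambium and of vascular identity numbered 17, with 3 higher (9.64% of all loci), 4 lower (12%) and 10 not called, a median log2 fold change of 0.07. With the sides averaged 1 was called, OFP12. AIL6, an AINTEGUMENTA-like factor of dividing tissue, was higher at LOC112018242, with 9.70, 9.25, 9.16 and 9.83 in cork-like bark, against 7.05, 6.60, 6.80 and 5.57 in rhytidome (log2 fold change 2.98 ± 0.35, adjusted p = 1.1e-05, averaged 0.0101). WOX4 LOC111988759, which keeps cambium cells dividing in Arabidopsis, had 11.45, 11.54, 11.18 and 11.33 in cork-like bark, against 10.42, 9.91, 9.91 and 10.26 in rhytidome, a log2 fold change of 1.25 ± 0.25 (adjusted p = 9.3e-04, averaged 0.088). OFP12 LOC112017868, an ovate family protein, a class of growth repressors that bind homeodomain factors, was higher by 3.44 with 9.38, 9.21, 8.98 and 9.45 in cork-like bark, against 6.58, 5.27, 5.40 and 6.03 in rhytidome (adjusted p = 7.5e-07, averaged 0.0028). The related AIL5 LOC112025300 was not called (log2 fold change 0.91 ± 0.35, adjusted p = 0.051), nor was the vascular homeodomain gene HB-8 LOC112029705, whose 4 sides were above the 4 trees but whose log2 fold change was 0.85. The KNOX genes KNAT1 LOC112015571 and STM LOC111993990, which maintain meristems, were not called. KNAT1 had a log2 fold change of -0.997, just under the size needed, at an adjusted p of 3.6e-05. STM had -0.70 (adjusted p = 0.025).

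BAM3, LBD4, PTL and a FRIGIDA-like locus were lower. BAM3 LOC112030870, a receptor kinase of developing phloem in Arabidopsis, had 6.02, 8.57, 9.45 and 8.01 in cork-like bark, against 11.15, 11.58, 12.20 and 10.90 in rhytidome, a log2 fold change of -3.44 ± 0.64 (adjusted p = 5.6e-04, averaged 0.017). It was the single gene of the planned phloem marker list that had a name, so that list could not be summed. Living phloem was part of the scraped rhytidome, and its part in the lower loci was not tested. LBD4 LOC112038775, a factor at the phloem side of the vascular cambium, had 6.45, 7.24, 7.46 and 6.51 in cork-like bark, against 8.40, 9.999, 9.95 and 9.47 in rhytidome (log2 fold change -2.54 ± 0.35, adjusted p = 4.6e-05, averaged 0.013), while the LBD4 locus LOC111997151 overlapped between the barks (0.073). PTL LOC111994212, a trihelix factor that limits growth between sepals, was lower by 1.28. FRIGIDA-like LOC111986594, matched to a family of flowering regulators, had a log2 fold change of -1.08 (adjusted p = 0.0039, averaged 0.15), which was -0.89 without tree 68 (adjusted p = 0.015), and calls were also lost without tree 67 or without the north or west side. FRIGIDA-like LOC112017830 and LOC112034633, SVP LOC111992586, LBD41 LOC112037478 and LBD1 LOC111995183 were not called, with log2 fold changes of 0.44, 0.51, 0.64, -0.57 and -0.53.

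Both tested AUX/IAA loci and 2 of 3 tested ARF loci were lower in cork-like bark, and the AUX/IAA loci alone kept the call with the sides averaged. AUX/IAA proteins repress auxin response genes and are broken down when auxin is sensed, and ARF proteins bind the promoters of those genes. Of 8 auxin and gibberellin loci 7 were tested, 1 higher (9.64% of all loci) and 4 lower (12%), with a median log2 fold change of -1.11. IAA16 LOC112037338 had 9.62, 11.10, 11.55 and 10.66 in cork-like bark, against 12.90, 13.36, 13.42 and 13.52 in rhytidome, a log2 fold change of -2.57 ± 0.31 (adjusted p = 1.4e-05, averaged 6.7e-04). The AUX/IAA locus LOC112037337, whose ID is next to it, had 8.90, 10.93, 10.25 and 9.70 in cork-like bark, against 12.12, 12.83, 12.71 and 11.58 in rhytidome (log2 fold change -2.37 ± 0.35, adjusted p = 9.2e-05, averaged 0.0041). At both, the north side was the lowest. ARF18 LOC112005008 was lower by 1.93 (adjusted p = 7.4e-04, averaged 0.049) and ARF6 LOC112032136 by 1.11 (averaged 0.043), though without tree 67 the log2 fold change of ARF6 was -0.97. ARF2 LOC111990207 had a log2 fold change of -0.96, under the size needed, at an adjusted p of 7.0e-05. Gibberellin 2-oxidase 6, which inactivates gibberellin, was higher at LOC112036060 by 2.66 (adjusted p = 9.4e-05, averaged 0.026), with 6.25, 5.38, 5.26 and 5.89 in cork-like bark, against 3.30, 2.91, 2.56 and 3.37 in rhytidome, and at LOC112011730 had 1.13 without passing the test.

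Of 18 cell wall loci 6 were higher (9.64% of all loci), 4 lower (12%) and 8 not called, with a median log2 fold change of 0.58. With the sides averaged 4 were higher and 1 lower. TBL25 LOC112014198, of the trichome birefringence-like family of wall acetyltransferases and not chosen by value, had 11.46, 11.32, 11.24 and 11.31 in cork-like bark, against 8.46, 7.61, 8.46 and 8.47 in rhytidome, a log2 fold change of 3.08 ± 0.24 (adjusted p = 2.1e-07, averaged 0.0014). The xyloglucan endotransglucosylases XTH30 LOC112025227 and XTH28 LOC112005138, which cut and rejoin xyloglucan, were higher by 2.19 and 1.93, and XTH28 kept the call with the sides averaged (adjusted p = 0.0073). XTH30 had 14.87, 14.61, 14.14 and 14.47 in cork-like bark, against 12.85, 11.86, 11.74 and 12.88 in rhytidome (averaged 0.044). Beta-xylosidase 2 LOC112006849 and the rapid alkalinization factor LOC111992557, from a family of peptides perceived by FERONIA-type receptors, were higher by 1.53 and 1.68.

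Receptor kinases of the FERONIA family, which sense the state of the wall, differed in direction. HERK1 LOC112000774 had 13.71, 13.44, 13.78 and 13.70 in cork-like bark, against 11.46, 11.34, 11.31 and 11.39 in rhytidome, a log2 fold change of 2.29 ± 0.20 (adjusted p = 6.5e-07, averaged 0.002). Both loci matched to FERONIA itself (FER) were lower. FER LOC112029792 had 7.14, 7.60, 7.84 and 7.51 in cork-like bark, against 10.66, 11.03, 12.25 and 12.25 in rhytidome (log2 fold change -4.03 ± 0.77, adjusted p = 6.9e-04, averaged 0.078). FER LOC112000806 had 3.20, 4.52, 4.67 and 4.43 in cork-like bark, against 12.65, 6.74, 12.38 and 11.63 in rhytidome, a log2 fold change of -6.64 ± 1.73 (adjusted p = 0.0064, averaged 0.19). Tree 67 was over 4 log2 units below the other holm oaks there, and the adjusted p exceeded 0.01 without any 1 of the 4 sides or of trees 33, 68 and 94, up to 0.021. Cellulase 2 LOC112029433 was lower by 2.24 with 11.26, 11.63, 11.31 and 11.33 in cork-like bark, against 14.39, 13.82, 12.66 and 13.64 in rhytidome (adjusted p = 1.0e-05, averaged 0.0096), and the extensin-like pollen Ole e 1 locus LOC112023845 by 3.23. Loci for making or loosening wall polymers that were not called included EXPA4 LOC112017318 (-0.70), UGD LOC111990917 (-0.17), RGP2 LOC112004750 (-0.55), glycosyl hydrolase 9A1 LOC112027607 (0.65) and EXT3 LOC112039578 (1.27, adjusted p = 0.012).

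Tubulins form microtubules, which guide the laying down of cellulose, and a tubulin was the study's reference gene in quantitative PCR. That locus, tubulin beta-2 LOC112004091, had 15.73, 15.55, 15.41 and 15.65 in cork-like bark, against 13.84, 13.17, 13.53 and 13.57 in rhytidome and was higher in cork-like bark by 2.06 ± 0.26 (adjusted p = 1.7e-05, averaged 0.013). Of 6 tubulin alpha-4 loci, 2 were higher (9.64% of all loci), 1 lower (12%) and 3 not called. Of all 7 tubulin loci 0 were called by limma with the sides averaged, while 3 had an unadjusted p under 0.05. Tubulin alpha-4 LOC112004381 had 16.53, 16.28, 15.83 and 16.28 in cork-like bark, against 14.98, 13.76, 14.64 and 13.95 in rhytidome (log2 fold change 1.89 ± 0.30, adjusted p = 1.4e-04, averaged 0.031). Tubulin alpha-4 LOC112017746 had 5.83, 6.14, 5.82 and 5.77 in cork-like bark, against 7.77, 8.59, 7.86 and 7.66 in rhytidome (log2 fold change -2.08 ± 0.33, adjusted p = 1.5e-04, averaged 0.039). The call at LOC112040242 (1.53, adjusted p = 0.00999, averaged 0.23) was lost on leaving out any 1 of 12 of the 16 libraries, with adjusted p up to 0.030.

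Loci named for the jasmonate and oxylipin pathway were mostly lower DEGs, and all of those lower were loci the study had chosen. Jasmonate, a wound and defence hormone, is made from linolenic acid by lipoxygenase, allene oxide cyclase and a reductase, and CYP94B enzymes inactivate it. Of 13 loci, 11 were lower (12% of all loci) and 2 not called, and 3 were lower with the sides averaged. However, 10 of the 13 were in the list drawn from rhytidome-biased clusters, where the direction was fixed by choice, a further 2 were singled out by the study, and the remaining locus was not called. Lipoxygenase 3 LOC112001646 had 6.29, 6.18, 7.32 and 7.05 in cork-like bark, against 10.62, 11.10, 12.37 and 12.59 in rhytidome, a log2 fold change of -4.96 ± 0.43 (adjusted p = 6.6e-07, averaged 0.0014). Lipoxygenase 2 LOC111990533 had 7.19, 9.55, 10.46 and 8.56 in cork-like bark, against 11.48, 11.99, 12.29 and 12.72 in rhytidome (log2 fold change -3.18 ± 0.50, adjusted p = 1.5e-04, averaged 0.0012). The trees spanned just over 1 log2 unit at this locus, while the sides spanned more than 3 with north lowest and east highest. Lipoxygenase 3 LOC112018950 and hydroperoxide lyase 1 LOC111999205 were lower by 2.41 and 1.91 (averaged 0.082 and 0.051).

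The jasmonate-inactivating CYP94B1 LOC112020942 and CYP94B3 LOC112005217 were lower by 3.42 and 2.30 (averaged 0.14 and 0.016). CYP94B1 had 3.08, 2.59, 3.40 and 4.02 in cork-like bark, against 8.23, 7.23, 7.09 and 4.21 in rhytidome, where tree 94 was just above the west side, and its adjusted p was above 0.01, up to 0.013, without tree 33, 67 or 68 or the north or south side. CYP94B3 had 0.87, 1.26, 0.37 and 0.85 in cork-like bark, against 3.83, 2.76, 2.77 and 3.22 in rhytidome, low in both barks. Oxophytodienoate reductase 3 LOC111985500 had a log2 fold change of -0.43 and was not called, and the lipoxygenase LOC111983719, the single locus of the 13 not chosen by value, had 7.37, 7.97, 7.82 and 8.24 in cork-like bark, against 7.97, 8.54, 8.75 and 7.86 in rhytidome and overlapped (-0.43, adjusted p = 0.67). Leaving out 1 library left 8 to 11 of the 13 called, the fewest without tree 67 or without the north or south side. Phospholipases release signal lipids from membranes. Over all loci 12% were lower DEGs. All 5 from the rhytidome-biased list were lower, 1 of them with the sides averaged, led by phospholipase D alpha 1 LOC112041165 with 7.16, 6.84, 6.75 and 7.001 in cork-like bark, against 10.76, 10.44, 10.82 and 10.81 in rhytidome (log2 fold change -3.77 ± 0.27, adjusted p = 1.3e-07, averaged 7.6e-04), and phospholipase C4 LOC111994529 was lower by 1.80. PLDa1 LOC112037256, the locus the study singled out, had 0.35 and was not called.

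**Figure D3:**
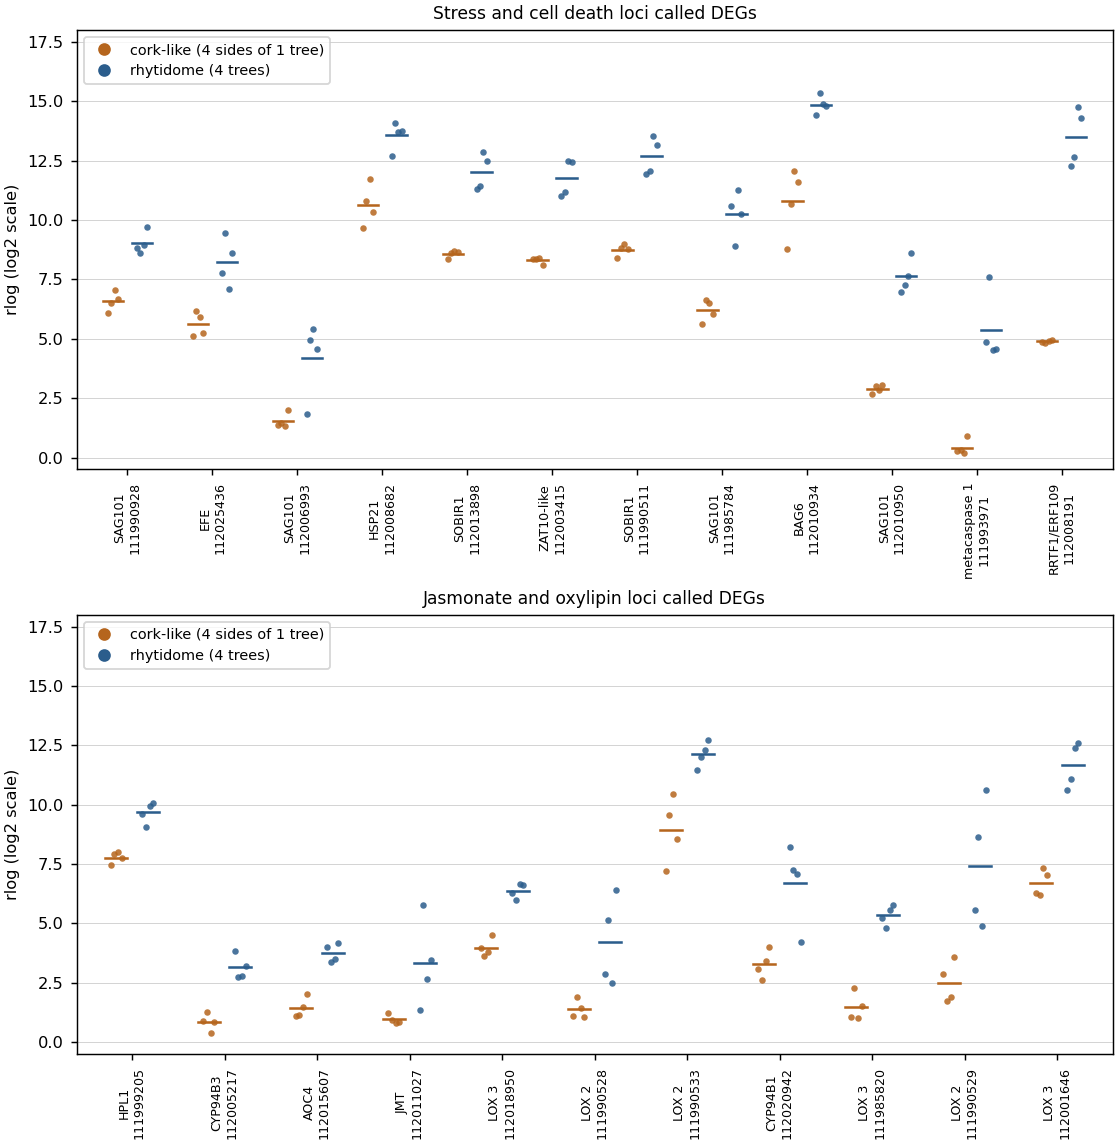
Values of rlog (log2 scale) in each library for the 12 stress and cell death loci (upper panel) and the 11 jasmonate and oxylipin loci (lower panel) called DEGs, with cork-like sides left of rhytidome trees and a bar at each mean. At RRTF1/ERF109 LOC112008191, far right of the upper panel, the sides lie between 4.81 and 4.96 and the trees between 12.27 and 14.76.

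Stress and cell death loci held the lowest log2 fold change of any named locus. Of 21 loci 19 were tested and 12 were lower (12% of all loci), of which 5 kept the call with the sides averaged. Outside the rhytidome-biased list 8 of 14 were lower, and among those not chosen by value 4 of 9. RRTF1/ERF109 LOC112008191, a redox-responsive ethylene response factor, had 4.88, 4.81, 4.90 and 4.96 in cork-like bark, against 12.27, 12.64, 14.76 and 14.32 in rhytidome. The 4 sides were nearly equal and over 7 log2 units below every holm oak, a log2 fold change of -8.60 ± 0.53 (adjusted p = 2.0e-08, averaged 2.9e-04). In the other barks its mean rlog was 9.80 in cork and 10.58 in rhytidome-like bark. SOBIR1, a receptor kinase that triggers cell death in immunity, was lower at both loci by 3.94 (LOC111990511) and 3.45 (LOC112013898), and LOC111990511 had 8.40, 8.83, 8.98 and 8.79 in cork-like bark, against 11.96, 12.07, 13.56 and 13.17 in rhytidome. ZAT10-like LOC112003415, a stress-induced zinc finger factor, had 8.38, 8.34, 8.39 and 8.12 in cork-like bark, against 11.03, 11.17, 12.51 and 12.44 in rhytidome (log2 fold change -3.48 ± 0.43, adjusted p = 1.7e-05, averaged 0.013). At these loci of the immune and redox response trees 68 and 94 were the higher pair of holm oaks.

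BAG6 LOC112010934, a calmodulin-binding co-chaperone of cell death control and not chosen by value, had 8.78, 10.68, 12.06 and 11.62 in cork-like bark, against 14.42, 15.35, 14.88 and 14.80 in rhytidome, a log2 fold change of -4.08 ± 0.51 (adjusted p = 1.7e-05, averaged 1.7e-04). Heat shock protein 21 LOC112008682, a plastid chaperone, had 9.68, 10.81, 11.74 and 10.35 in cork-like bark, against 12.71, 14.08, 13.70 and 13.77 in rhytidome (log2 fold change -2.92 ± 0.40, adjusted p = 3.8e-05, averaged 0.0043). For both of these chaperone loci the north side was lowest and the east side highest. Metacaspase 1, a cysteine protease of plant cell death, was lower at LOC111993971 by 4.97 (averaged 0.012), with 0.26, 0.32, 0.20 and 0.89 in cork-like bark, against 4.86, 7.62, 4.51 and 4.57 in rhytidome, while its other 3 tested loci were not called (0.022, 0.20 and 0.77). The senescence-associated SAG101, an acyl hydrolase-like protein of immunity, was lower at 4 of 5 loci (12% of all loci). These were all from the rhytidome-biased list, led by LOC112010950 (-4.72) and LOC111985784 (-4.05). RBOHD LOC112002845, the NADPH oxidase of the oxidative burst, had 8.31, 10.25, 10.48 and 9.48 in cork-like bark, against 12.71, 9.91, 13.18 and 13.11 in rhytidome. Tree 67 lay among the sides, and the locus was not called (log2 fold change -2.60 ± 0.84, adjusted p = 0.022).

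Further loci stood out for the size of their difference. The glycine-rich protein DC7.1-like LOC112034238 had 16.77, 16.52, 16.02 and 16.16 in cork-like bark, against 8.20, 7.51, 8.45 and 8.50 in rhytidome. The lowest side was over 7 log2 units above the highest holm oak, with a log2 fold change of 8.20 ± 0.38, the highest of any named locus (adjusted p = 2.2e-09, averaged 5.9e-05). Its mean was 15.75 in cork and 11.24 in rhytidome-like bark. P-glycoprotein 11 LOC112005047, of the ABCB transporter family, had 15.03, 15.32, 15.60 and 15.34 in cork-like bark, against 12.66, 11.64, 11.72 and 12.47 in rhytidome (log2 fold change 3.20 ± 0.27, adjusted p = 5.7e-07, averaged 0.0017). ACAT2 LOC111992289, an acetoacetyl-CoA thiolase at the entry to the mevalonate pathway, was higher by 2.03 (averaged 0.0032) with 14.96, 14.78, 14.65 and 14.63 in cork-like bark, against 12.89, 12.32, 12.51 and 13.18 in rhytidome. Chromatin remodeling 31 LOC112002935, of the SNF2 family, was higher by 3.38 (adjusted p = 2.3e-05, averaged 0.011) with 6.25, 6.60, 7.72 and 6.94 in cork-like bark, against 3.75, 2.88, 3.94 and 3.41 in rhytidome. The aspartyl protease LOC111989591 was higher by 1.07 (averaged 0.027), and by 0.95 without tree 68, under the size needed. MAT3 LOC112032159, which makes S-adenosylmethionine, was higher by 1.46 (adjusted p = 0.0057, averaged 0.18), with an adjusted p of up to 0.020 when tree 67, 68 or 94 or the north, south or west side was left out. The 2-oxoglutarate oxygenase LOC112003248 was higher by 1.98 (averaged 0.0089).

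Lower loci outside the groups above included a CAP superfamily locus, LOC111995890, related to pathogenesis-related protein 1, with 8.91, 9.01, 9.54 and 9.05 in cork-like bark, against 12.87, 13.21, 13.13 and 11.71 in rhytidome (log2 fold change -3.60 ± 0.33, adjusted p = 1.0e-06, averaged 0.0024). UGT74E2 LOC112039374, a glycosyltransferase whose Arabidopsis match conjugates indole-butyric acid, was lower by 3.25 (averaged 0.0095). Among loci of starch and sugar, 3 of 5 were lower and 1 higher, and with the sides averaged the higher locus alone was called. Over all loci 9.64% were higher and 12% lower DEGs. The glycosyltransferase family locus LOC112005908 and the UDP-glycosyltransferase LOC112005619 were lower by 2.83 and 2.76. Carbonic anhydrase 2 LOC112019297, counted in this group though not an enzyme of starch or sugar, was lower by 2.40. The SNF1-related kinase beta-2 subunit LOC111986784, of the kinase that senses low energy, was higher by 1.38 ± 0.14, with 13.09, 13.08, 12.73 and 12.72 in cork-like bark, against 11.16, 11.48, 11.75 and 11.71 in rhytidome (adjusted p = 2.1e-06, averaged 0.0024). Loci without a name went further still. LOC112032117 and LOC112032023 had the largest positive log2 fold changes by the rule used for named loci (10.56 and 8.83), and LOC111989390 and LOC112033039 the largest negative ones (-10.08 and -9.91). Mean rlog in cork-like bark, rhytidome, cork and rhytidome-like bark was 12.42, 1.87, 1.22 and 3.47 at LOC112032117. In the same order it was 13.08, 4.25, 12.43 and 7.27 at LOC112032023. For the lower loci it was 2.09, 12.17, 4.06 and 4.31 at LOC111989390 and 1.47, 11.38, 3.17 and 4.23 at LOC112033039.

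Of 10 families picked from those with several named loci, 2 were called in both directions. These were MYB4, with 3 higher and 1 lower, and tubulin alpha-4, with 2 higher and 1 lower. Called in 1 direction, beside loci not called, were PER3 (3 of 6), MYB84 (1 of 4), LBD4 (1 of 2), P-glycoprotein 11 (1 of 4), metacaspase 1 (1 of 4) and the ethylene-forming enzyme (1 of 3), which makes ethylene from its precursor. For the ethylene-forming enzyme, LOC112025436 was lower by 2.62 (adjusted p = 0.0014, averaged 0.094) while LOC111997410 had 8.42, 9.20, 9.23 and 11.59 in cork-like bark, against 6.49, 7.02, 9.05 and 6.02 in rhytidome and was not called (2.47, adjusted p = 0.013). The 3 MYB36 loci and the 3 ABCG11 loci were each called in a single direction. Other families with several named loci, such as GELP38, SOBIR1 and SAG101, were not among the 10. A difference between barks in one locus was not tested against that in another, and loci of near-identical sequence share reads that the authors' unique alignment leaves out.

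**Figure D4:**
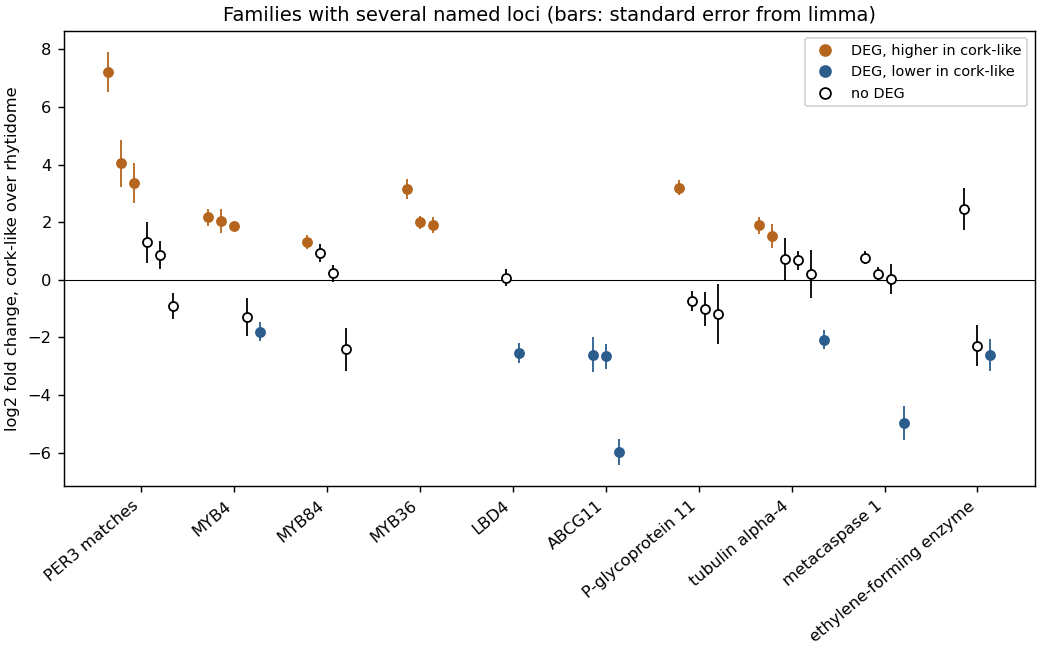
Log2 fold change of cork-like bark over rhytidome (vertical axis, bars: SE from limma) for each tested locus of 10 families picked from those with several named loci, filled where called. MYB4 and tubulin alpha-4 hold called loci on both sides of 0, and the PER3 loci run from -0.90 to 7.22.

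The 4 sides of the cork-like tree were not equally far from rhytidome. Over the 1867 lower DEGs whose rlog averaged 5 or more, the north side was the lowest of the 4 sides at 990 (53.0%), and over the 1880 higher DEGs it was the highest at 1044 (55.5%). Among the 14462 loci of that level that were no DEGs, the north side was lowest at 29.5% and highest at 34.3%. The east side was most often nearest to rhytidome, being highest at 41.3% of the lower DEGs and lowest at 47.8% of the higher ones, against 31.4% highest and 31.7% lowest among the loci that were no DEGs. The shift was small for most loci, a median of -0.26 for the north side against the mean of the other sides at lower DEGs and 0.18 at higher DEGs. At 54 loci of that level the north side was more than 2 log2 units below the other sides, of which 32 were lower DEGs, and at 1 locus it was more than 2 above. Each side was sequenced once, so side and library cannot be told apart, and no test was made. The holm oaks were sampled on the south side only, so the south library alone matched them in orientation. The median rlog over all tested loci was 7.44 in the north library and 7.53 to 7.56 in the other 3.

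Named loci with the largest SD over the 4 sides, among those averaging 5 or more, were BAM3, BAG6 and lipoxygenase 2 LOC111990533, described above, and the ethylene-forming enzyme LOC111997410 and a chitinase. At BAM3 the SD was 1.45 in cork-like bark and 0.57 in rhytidome. The chitinase family locus LOC112019269, of an enzyme class that degrades fungal walls, had 5.02, 7.66, 7.52 and 6.32 in cork-like bark, against 7.20, 9.18, 8.81 and 7.22 in rhytidome, with the north side lowest, and was not called (-1.47, adjusted p = 0.11). The ethylene-forming enzyme was instead highest on the west side. At GELP38 LOC111998717 the SD was 0.09 over the sides and 0.58 over the trees, and at GPAT5 LOC112028279 it was 0.26 and 0.34.

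**Figure D5:**
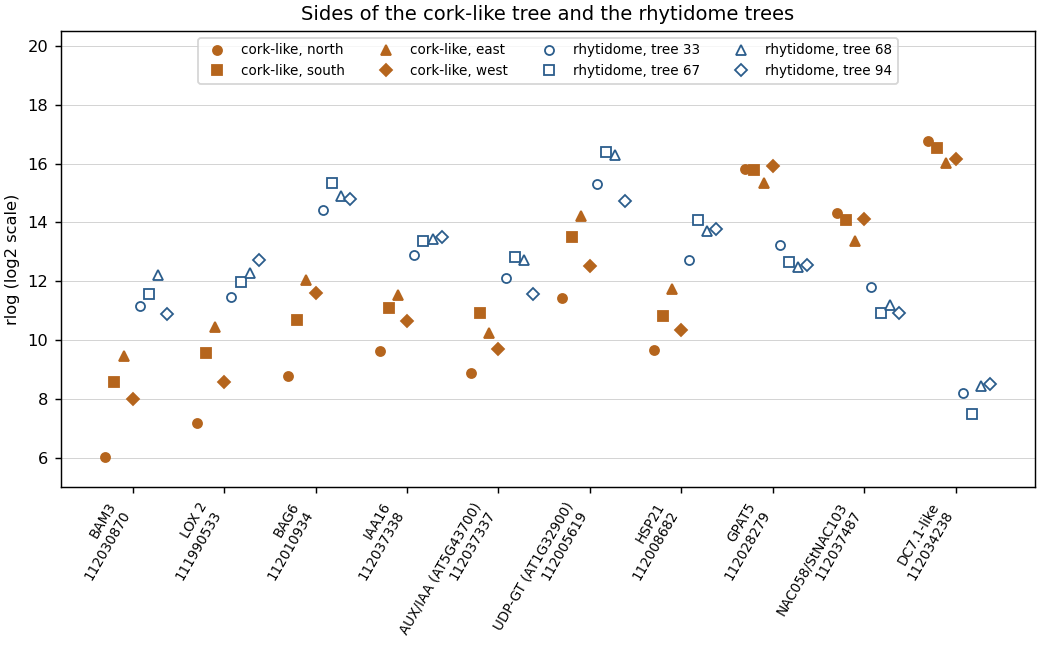
Values of rlog (log2 scale) for 10 named loci, with the 4 sides of the cork-like tree (filled) left of the 4 rhytidome trees (open). The 10 loci were picked by hand and do not stand for all DEGs. At the 7 lower loci on the left the north side is the lowest of the sides, while at GPAT5, NAC058/StNAC103 and the DC7.1-like locus on the right the east side is the lowest. Over all lower DEGs averaging 5 or more, the north side was lowest at 53% and highest at 13.9%. At the higher DEGs of that level the east side was lowest at 47.8%.

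Holm oaks differed more, and tree 33 was often the nearest of them to the cork-like bark. At 11 of the 14 suberin loci and 13 of the 17 suberin regulator loci tree 33 was the highest of the 4 trees, by a median of 0.60 and 0.64 over the mean of the other trees. It was also highest at 11 of the 18 cell wall loci. However, at lower DEGs such as cellulase 2, FER LOC112000806 and both SHR loci, the highest tree was the farthest from the cork-like sides. Tree 33 was highest at 35.9% of the higher DEGs averaging 5 or more and at 23.0% of the loci of that level that were no DEGs. At the lower DEGs of that level it was lowest at 35.4%, against 24.2% of the loci that were no DEGs. Its median r with the cork-like libraries was 0.897, against 0.879 to 0.885 for the other trees. The tree farthest from the other holm oaks was 94, with a median r of 0.941 to them against 0.953 to 0.955 for the rest, and at 679 loci (3.73% of those averaging 5 or more) that tree was more than 2 log2 units from the mean of the others, against 386 to 538 for the others. Without tree 94 limma called 5511 DEGs, 2488 higher and 3023 lower, among them 11 of the suberin and 12 of the suberin regulator loci. The named loci with the largest SD over trees were FER LOC112000806, PER3 LOC112041098 and the ABC-2 type transporter LOC112012025, described above, and 2 desaturases, which put double bonds into fatty acids. Delta 9 desaturase 1 LOC111983322 had 6.41, 7.17, 6.45 and 8.41 in cork-like bark, against 8.997, 6.52, 7.41 and 10.93 in rhytidome, and the stearoyl-ACP desaturase locus LOC111992805 had 4.82, 5.56, 5.64 and 5.70 in cork-like bark, against 3.59, 7.93, 4.04 and 7.42 in rhytidome. Both overlapped between the barks and were not called (log2 fold change -1.35 and -0.32).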

How the data were processed

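The study describes mRNA sequencing of paired-end cDNA libraries, with a strand setting not given in the sources used here. The authors trimmed paired reads (Trimmomatic 0.40), aligned them with GSNAP to the cork oak genome CorkOak1.0, kept unique concordant pairs, counted them per locus (HTSeq 0.11.1) and deposited regularized log2 values made with DESeq2 1.38.3 over the 16 libraries. These deposited log2 values are not counts, they draw loci of few reads toward their mean and so understate large differences of such loci, and they are not scaled for gene length. Read depth per library is not kept in them, so no counting interval was computed, and the number of libraries limits the precision.

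Loci averaging an rlog of 1 or more over the 8 libraries were fitted with limma 3.58.1 (R 4.3.3): a mean per bark over all 16 libraries, the contrast of cork-like bark minus rhytidome, eBayes with a trend, and Benjamini-Hochberg adjustment over the 25963 loci. The fit was tested on simulated data with known changes, in which all libraries varied independently. That test cannot cover false calls that arise because the 4 sides share 1 tree. Fits with the 4 cork-like libraries averaged to 1, with the south side alone, on the 8 libraries alone, with other filters, scalings and variance estimates, and without each library in turn were run as alternatives. "Averaged" beside an adjusted p means the fit to all barks with the 4 sides as 1 sample. The other trees are separate samples. In the fit reported, the p-values rest on a spread pooled over all barks, most of it from trees, while the 4 sides count as 4 samples. They do not cover a spread between cork-like trees.

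Named in the text were all loci the study singled out, by function, with values for up to 4 a group by absolute log2 fold change; up to 15 a direction among named DEGs with a mean rlog of at least 5, no overlap between the barks and an adjusted p under 0.01 with the sides averaged; up to 4 DEGs a direction in each gene group; up to 5 loci a bark of largest SD; the tubulin reference; and further group members, chosen after their values were seen. The members and lists were chosen with earlier results of these data known. Lists for flavonoid, triterpene and cell cycle genes, for photosynthesis and fibre markers, and for phloem beyond BAM3 were not analysed here, since few or none of their genes had a name in the sources used.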

Additional observations from a re-analysis of the deposited data

Results flagged for a closer look

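Among the 139 named loci, 13 of 278 sets of 4 libraries (4.68%) held 1 library apart from the other 3 by Dixon's criterion for 4 samples, and chance alone flags about 1 in 20 such sets. In cork-like bark the north side was apart at FER LOC112000806 (3.20, the other sides 4.43 to 4.67) and at the stearoyl-ACP desaturase LOC111992805 (4.82, others 5.56 to 5.70). The south side was apart at PER39 LOC112024643 (1.17, others 2.89 to 3.11) and SHR LOC112020835 (1.35, others 0.79 to 0.82). At 3 loci that were not called the east side was apart. These were EXPA4 LOC112017318 (12.16, others 12.91 to 13.05), LBD41 LOC112037478 (12.79, others 11.01 to 11.08) and PER72 LOC112006365 (9.05, others 9.39 to 9.42). The west side was apart at ABCG11 LOC111989383 (6.18, others 4.83 to 5.05).

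In rhytidome, tree 67 was apart at TBL25 LOC112014198 (7.61, the other trees 8.46 to 8.47), at RBOHD LOC112002845 (9.91, others 12.71 to 13.18) and at metacaspase 1 LOC111993971 (7.62, others 4.51 to 4.86). Tree 68 was apart at PTL LOC111994212 (11.42, others 10.45 to 10.59) and tree 33 at ASFT/FHT LOC112001733 (14.84, others 14.10 to 14.22). Of these 13 loci, RBOHD, the desaturase, EXPA4, LBD41 and PER72 were not called.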

How the results depend on the processing

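Counting the 4 sides as 1 sample, or using 1 side alone, lowered the count of DEGs further than any other choice tried. Against 5608 DEGs (2504 higher, 3104 lower), limma called 1010 (514 higher, 496 lower) with the 4 sides averaged to 1 sample, 14 (1 higher, 13 lower, 7.14% higher) with that sample against rhytidome alone, where the other barks also left the fit, and 1025 (529 higher, 496 lower) with the south side alone. Where 1 cork-like sample remained, it was assumed to vary like the other barks. Testing for a change above 1 on the log2 scale left 1698 (783 higher, 915 lower), and a mean rlog of at least 5 left 1874 lower DEGs. Leaving out 1 library gave 4399 to 5775 DEGs (2045 to 2584 higher, 2354 to 3191 lower), a share of 44.5% to 46.5% higher and a median log2 fold change of -0.080 to -0.025, with the fewest calls without the north side.

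The median log2 fold change of all loci, -0.058 in the fit reported, was -0.034 with the south side alone, -0.016 without a filter, 0.010 over loci averaging 5 or more, 0.023 after quantile normalization and 0.061 after median centring, a shift of 0.12. The share of DEGs that were higher was 44.7% in the fit reported, 51.3% after quantile normalization (2946 higher, 2797 lower) and 51.4% after median centring (2909 higher, 2749 lower).

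Of the 139 named loci 101 were DEGs, and the filter at a mean rlog of 5 held 92 of these. None of the 101 changed direction in an alternative run. Only other scalings, the south side alone and leaving out a cork-like or rhytidome library can alter a log2 fold change here. In all other runs the direction was fixed in advance. Averaging the sides lost 65 of the 101 calls in the fit to all barks (36 kept) and 100 against rhytidome alone (1 kept). The south side alone lost 67 and the test for a change above 1 lost 46, and 15 were lost on leaving out some 1 library. Loci that were not called and lay near 0 changed sign. MYB9 LOC112034724 was 0.10 with the south side alone, PER72 LOC112006365 0.054 there and 0.066 after median centring, metacaspase 1 LOC112002928 -0.27 with the south side alone, GELP51 LOC112009101 0.030 after median centring and FRIGIDA-like LOC112017830 -0.072 after quantile normalization. Without 1 library the values ran from -0.37 to 0.10 at MYB9 LOC112034724, -0.18 to 0.11 at PER72, -0.30 to 0.45 at metacaspase 1 LOC112002928, -0.25 to 0.044 at GELP51 LOC112009101, -0.18 to 0.28 at LBD4 LOC111997151 and -1.03 to 0.41 at the desaturase LOC111992805. The cause of these changes was not tested.

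No paired analysis was possible because the cork-like libraries are sides of 1 tree and share no replicate number with the rhytidome trees. Depth is unknown from these values, and loci of low rlog are drawn together by the transformation.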
